A study of Mus musculus with 9 samples.

Results

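Intestinal epithelial cells (IECs) of mice killed 72 h after α-galactosylceramide (αGalCer), here 72h-αGal, were compared with IECs of control mice killed 18 h after phosphate-buffered saline (PBS). Members were chosen by treatment and time of sampling in the labels, which gave 6 of the 9 samples of the series, 3 mice in each group. Control mice were wild-type C57BL/6J females that had received PBS into the peritoneum, and 72h-αGal mice were wild-type females of that strain that had received 2 µg of αGalCer by the same route. The other 3 samples, taken 18 h after the same dose (18h-αGal), entered the fit to share its estimate of the spread, and were compared with 72h-αGal where stated. No PBS group was sampled at 72 h, so that αGalCer and the time of sampling cannot be told apart in any comparison of 72h-αGal with control. All cells came from crypts of the proximal small intestine and were sorted as live EpCAM+ cells without CD45, CD31 and Ter119. The age of these mice is not given in the labels.

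αGalCer is a glycolipid that CD1d presents to natural killer T (NKT) cells, which answer with a burst of cytokines. Crypts hold the stem cells of the epithelium and their dividing progeny, together with the secretory cells that arise from them. Enteroendocrine cells are the rare hormone-secreting cells of this lineage. Their enterochromaffin subtype makes serotonin, stores it in granules with chromogranins and releases it in response to irritants and nutrients. Neurog3 starts the enteroendocrine programme in progenitors, and Neurod1 acts after it during differentiation.

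Total counts ranged from 8887861 to 32722293 in the 6 libraries, and mitochondrial transcripts took 8.55% to 11.7% of them. Control replicate 3 had the smallest library and stood apart from controls 1 and 2 in genes of absorptive enterocytes and of antigen presentation, so that these results are given with and without it. A floor of 3 counts corresponded to between 1.76 and 7.13 normalised counts, the raw count divided by the size factor of the library, and covers counting error only. The cells carried the epithelial label in their transcripts: Epcam had 16279 to 21147 normalised counts in the 6 mice, and none of 10 epithelial markers differed between the groups at an unadjusted p under 0.05. In bulk RNA, fewer cells of a type cannot be told apart from less RNA in each of them.

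Of 18933 genes tested with edgeR, 5 passed an adjusted p of 0.05 (0.0264%). All 5 were lower at 72 h (0.0264%), and all belong to the enteroendocrine lineage: Tph1, Neurod1, Tac1, Chgb and Chga. The 250 bases upstream of their RefSeq transcription starts (GRCm38.p6) are shown because these genes moved together. Each is written 5′ to 3′ in the direction of the gene, and capitals mark matches on either strand to the E-box CANNTG, the motif class of basic helix-loop-helix factors such as Neurod1, or to TGACG, the core of the cyclic AMP response element.
Tph1 (chr7:46672538-46672787, minus strand): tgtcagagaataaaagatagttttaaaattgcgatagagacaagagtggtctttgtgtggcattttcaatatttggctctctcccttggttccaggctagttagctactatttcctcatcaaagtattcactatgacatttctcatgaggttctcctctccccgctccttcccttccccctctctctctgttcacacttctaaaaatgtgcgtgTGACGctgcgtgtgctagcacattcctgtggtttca
Neurod1 (chr2:79456637-79456886, minus strand): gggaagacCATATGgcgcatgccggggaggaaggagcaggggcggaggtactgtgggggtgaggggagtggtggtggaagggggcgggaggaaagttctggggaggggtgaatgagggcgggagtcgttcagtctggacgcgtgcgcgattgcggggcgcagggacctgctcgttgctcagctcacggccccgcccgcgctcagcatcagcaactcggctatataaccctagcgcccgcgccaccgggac
Tac1 (chr6:7554811-7555060, plus strand): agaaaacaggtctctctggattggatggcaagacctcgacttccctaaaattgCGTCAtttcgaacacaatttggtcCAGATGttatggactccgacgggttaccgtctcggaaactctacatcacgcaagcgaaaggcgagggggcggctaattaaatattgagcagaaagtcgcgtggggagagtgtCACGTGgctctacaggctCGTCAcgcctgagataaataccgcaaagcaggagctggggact
Chgb (chr2:132781392-132781641, plus strand): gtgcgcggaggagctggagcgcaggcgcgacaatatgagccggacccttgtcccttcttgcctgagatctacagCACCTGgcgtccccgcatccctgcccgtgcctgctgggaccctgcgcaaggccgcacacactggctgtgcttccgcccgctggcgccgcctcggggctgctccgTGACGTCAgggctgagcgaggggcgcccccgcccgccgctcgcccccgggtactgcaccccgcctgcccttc
Chga (chr12:102554691-102554940, plus strand): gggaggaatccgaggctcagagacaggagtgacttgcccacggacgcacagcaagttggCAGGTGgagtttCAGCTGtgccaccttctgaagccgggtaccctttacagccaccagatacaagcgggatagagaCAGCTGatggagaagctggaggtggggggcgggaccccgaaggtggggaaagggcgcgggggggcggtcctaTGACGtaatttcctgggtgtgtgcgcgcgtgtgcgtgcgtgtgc

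TGACG was found in 4 of the 5 stretches, namely those of Tph1, Tac1, Chgb and Chga, against 17.8% of 32851 RefSeq promoters over the same 250 bases. Its first base lay 36 bases upstream of the Tph1 start and 44 bases upstream of the Chga start. In Chgb, a match on each strand overlapped to form the full palindrome TGACGTCA, 72 bases upstream of the start, which 1.55% of all promoters held. The E-box was found in 4 of the 5, all but Tph1, against 66.2% of all promoters. TATAAA was searched as well and was in none of the 5, against 12.4% of all promoters. For Tph1, which has 2 starts in RefSeq, the one listed first is shown. These motifs were searched after the values were known, and a match of letters is a description and not a binding site.

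Tph1 (ENSMUSG00000040046), the rate-limiting enzyme of serotonin synthesis outside the brain, had 1151, 885 and 1103 normalised counts in the 3 control mice and 387, 454 and 406 in the 72h-αGal mice. Every 72h-αGal mouse lay below every control, and Tph1 fell 2.49-fold (log2 fold change -1.32 ± 0.15 SE, edgeR adjusted p = 0.00512). Neurod1 (ENSMUSG00000034701), the differentiation factor, had 882, 887 and 739 in controls and 356, 353 and 380 at 72 h. The 72h-αGal mice lay close together, all below every control, and the fall was 2.28-fold (edgeR adjusted p = 0.017). Neurod1 shares exonic bases with Cerkl on the same strand, and reads there cannot be assigned with certainty. Neurod1 and Chgb each also overlap an antisense gene, and without a stated strand setting those reads may have been shared.

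Tac1 (ENSMUSG00000061762), which encodes the precursor of substance P, a peptide of enterochromaffin cells, had 459, 485 and 319 normalised counts in controls and 152, 130 and 157 at 72 h. It had the largest fold of the 5, 2.86-fold lower (edgeR adjusted p = 0.017). Both chromogranins, the acidic proteins of secretory granules, fell as well. Chgb (ENSMUSG00000027350) had 3008, 2584 and 2651 in controls against 1323, 1460 and 1135, a 2.08-fold fall (edgeR adjusted p = 0.0349). Chga (ENSMUSG00000021194) had 978, 984 and 1103 in controls against 562, 456 and 370, a 2.19-fold fall (edgeR adjusted p = 0.039). For each of the 5 genes no 72h-αGal mouse reached the level of any control, a separation in this direction that 6.3% of all tested genes showed.

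**Figure D1:**
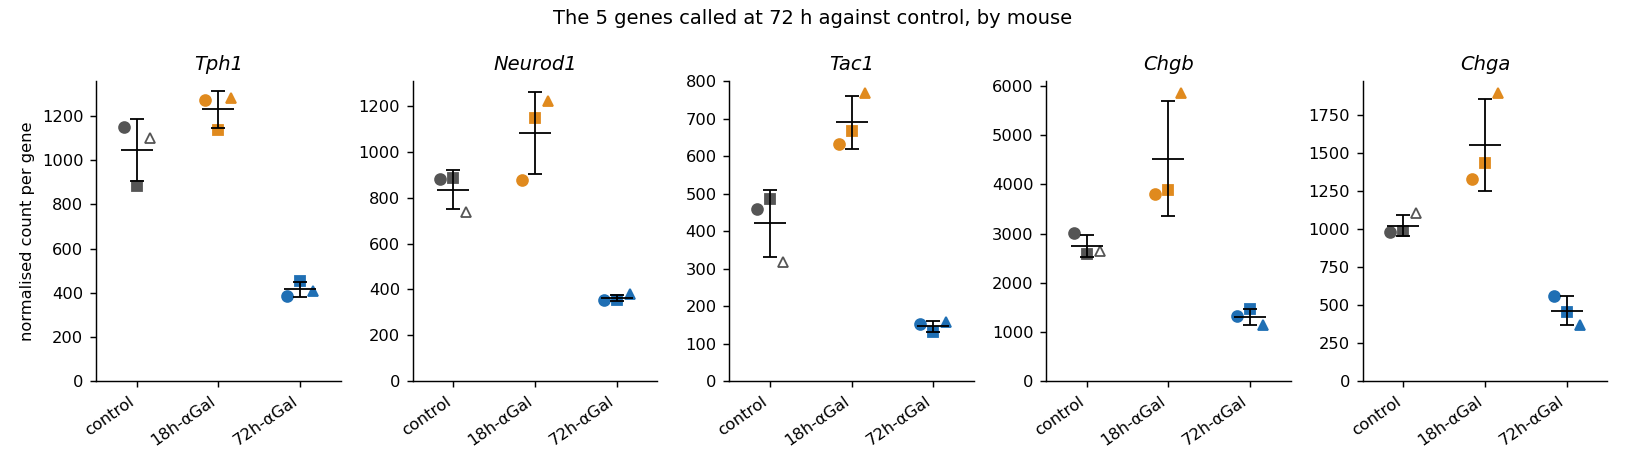
Normalised counts (linear axes from 0) of the 5 called genes in each mouse, with the group mean and SD as black bars; circles, squares and triangles are replicates 1, 2 and 3, and the open triangle is control replicate 3. The 3 mice of 72h-αGal sit below all control and all 18h-αGal mice in each panel, for example at 130 to 157 for Tac1.

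The 5 genes were also lower than in 18h-αGal mice, where none had fallen below control. At 18 h, Chgb, Chga and Tac1 were called higher than control (edgeR adjusted p = 0.0138, 0.0469 and 0.0495). Tph1 had 1276, 1135 and 1280 normalised counts in the 18h-αGal mice. From there to 72 h it fell 2.94-fold and Neurod1 fell 2.96-fold, Tac1 4.67-fold, Chgb 3.44-fold and Chga 3.34-fold, each with an edgeR adjusted p of at most 7.76e-05. The 5 genes were chosen by their low values in the same 72h-αGal mice, so that these p-values are no independent test. Of all genes tested, 6.04% were called lower and 4.18% higher between 72h-αGal and 18h-αGal (1144 and 792 genes), and upper-quartile scaling turned this split to 845 and 1019. Calls against control rested on few mice. No gene was called without control replicate 1, without 72h-αGal replicate 1 or without 72h-αGal replicate 3, where 1042, 828 and 689 genes had an unadjusted p under 0.05. Only Tph1 was called without control replicate 2, and only Tph1 and Afp without 72h-αGal replicate 2. The 5 log2 fold changes kept their sign in all 18 alternatives, with Tph1 between -1.42 and -1.23.

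The lineage was then followed through 5 lists of its genes by role, with 84 genes tested, of which Lmx1a stood in 2 lists. Of these, 77 were lower and 7 higher at 72 h, with a median log2 fold change of -0.72, against 9406 lower and 9526 higher and a median of 0.00 over all genes. An unadjusted p under 0.05 was reached by 39 of the 84 (46.4%), all of them lower, where 3.58% of all genes were lower and 2.36% higher at that p. The groups did not overlap for 39 of the 84 (46.4%), again all lower, where 6.3% of all genes were lower and 6.36% higher without overlap. Only the 5 genes above passed the adjustment over all genes. The lists hold these 5 genes and were chosen with earlier results of these data known, so that the shares are a description and no test. Without control replicate 3 the split was 75 lower and 9 higher, with a median of -0.63 and 7 genes called.

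**Figure D2:**
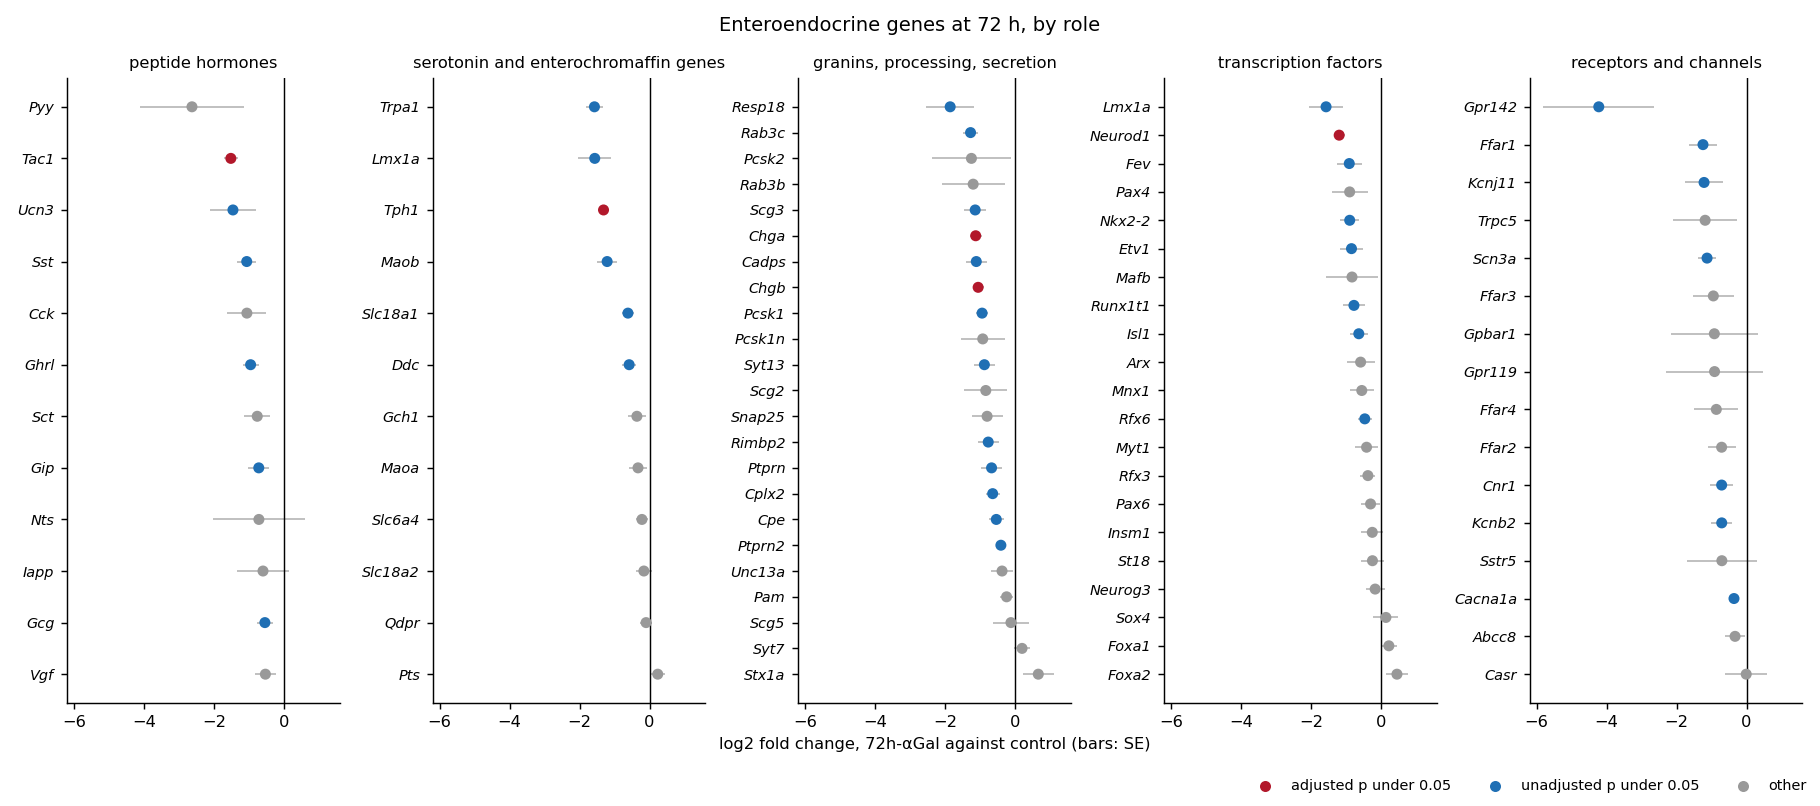
Log2 fold change (x axis) with SE of tested enteroendocrine genes, all but 1, between 72h-αGal and control, in 5 panels by role; red points passed an adjusted p of 0.05, blue points an unadjusted p of 0.05. Most points lie left of 0, and the 3 lineage factors right of 0 are Sox4, Foxa1 and Foxa2; long bars belong to genes near the floor of 3 counts, such as Gpr142, whose fitted values depend on the prior count.

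Among the peptide hormones, 12 of the 17 listed were tested, and all 12 were lower, with a median log2 fold change of -0.86. Tac1 was the only one called. Sst, which encodes the inhibitory peptide somatostatin, had 1140, 1112 and 796 normalised counts in controls and 476, 549 and 428 at 72 h, without overlap (edgeR adjusted p = 0.671, DESeq2 adjusted p = 0.0241). Ghrl, the ghrelin gene, had 443, 499 and 399 against 186, 250 and 250 (edgeR adjusted p = 0.51), again with every 72h-αGal mouse below every control. Of the incretin genes, Gip had 1555, 1314 and 1881 in controls and 872, 1308 and 674 at 72 h, without overlap but with the 2 nearest mice almost level. Gcg had 1265, 726 and 868 against 753, 715 and 485, with overlap. For Cck, control replicate 3 alone had 3031, and controls 1 and 2 had 1598 and 973 against 504 to 1289 at 72 h.

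Between 18 h and 72 h, 5 of the 12 hormone genes were called lower, against 6.04% of all genes. Sst fell 5.09-fold from a level in 18h-αGal mice of 1582, 2186 and 3692 (edgeR adjusted p = 0.00078), and Gcg fell 2.92-fold (edgeR adjusted p = 0.00114). The fall was 2.83-fold for Ghrl (edgeR adjusted p = 0.00123) and also 2.83-fold for Gip (edgeR adjusted p = 0.0144), and the fifth gene was Tac1.

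In the serotonin pathway, 11 of 12 tested genes were lower at 72 h and 1 was higher, with a median log2 fold change of -0.47. Beside Tph1, the genes with the lowest p were Trpa1, the irritant-sensing channel of enterochromaffin cells, and Maob, a monoamine oxidase. Trpa1 had 661, 803 and 525 normalised counts in controls and 215, 273 and 177 at 72 h, 2.98-fold lower (edgeR adjusted p = 0.0594, DESeq2 adjusted p = 1.01e-05). Lmx1a, a transcription factor of enterochromaffin cells, had 145, 125 and 99.9 against 53.3, 55.5 and 17.7 (edgeR adjusted p = 0.781). Slc18a1, the vesicular transporter that loads serotonin into granules, had 448, 457 and 445 against 293, 296 and 282. Its groups were narrow and did not overlap, with an edgeR adjusted p of 0.701. Ddc, the decarboxylase that completes serotonin synthesis, had 2810, 2157 and 2996 against 1734, 2056 and 1469, again without overlap (edgeR adjusted p = 0.81).

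The groups overlapped for the other serotonin genes but Maob. Slc6a4, the transporter by which enterocytes take serotonin up, had 1978, 1396 and 2242 normalised counts in controls and 1488, 1758 and 1523 at 72 h, a log2 fold change of -0.22 ± 0.17. Slc18a2, the second vesicular transporter, had -0.16 ± 0.24. Pts, which acts in the synthesis of the cofactor of Tph1, had 0.23 ± 0.21 and was the 1 gene called higher against 18h-αGal. Maob differed from the rest in its course: it had 1499, 1161 and 1900 in controls, 556, 424 and 865 at 18 h and 600, 875 and 469 at 72 h. It was lower than control at both times, and edgeR called it at 18 h only (adjusted p = 0.0241, against 0.596 at 72 h). DESeq2 gave an adjusted p of 0.00895 at 72 h. The difference between the times was 0.09 ± 0.29 on the log2 scale.

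Of the 24 genes of granins, prohormone processing and regulated secretion, 21 were lower, with a median log2 fold change of -0.82, and 13 had an unadjusted p under 0.05. Rab3c, a small GTPase of secretory vesicles, had 468, 442 and 373 normalised counts in controls and 195, 178 and 155 at 72 h (edgeR adjusted p = 0.0594, DESeq2 adjusted p = 0.000105). Pcsk1, the convertase that cleaves prohormones, had 822, 806 and 856 against 336, 485 and 451 (edgeR adjusted p = 0.201, DESeq2 adjusted p = 0.00445). Both genes separated the groups fully. Scg3, a granin that sorts cargo to granules, had 160, 101 and 121 against 46.3, 64.5 and 60.3. Pam, which amidates peptides, had 441, 490 and 516 against 444, 354 and 407, with overlap. Among the 3 genes that were higher was Syt7 of the vesicle fusion machinery, with a log2 fold change of 0.20 ± 0.22. From 18 h to 72 h, 14 of the 24 were called lower and none higher, against 6.04% and 4.18% of all genes.

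The transcription factors of the lineage varied in their fold changes, and differences among them were not tested. Of 21 tested, 18 were lower, 8 of them with an unadjusted p under 0.05, and the median log2 fold change was -0.55. Neurog3, which marks endocrine progenitors, had 179, 159 and 162 normalised counts in controls and 139, 112 and 189 at 72 h, with overlapping groups and a log2 fold change of -0.16 ± 0.28. Insm1, an early factor downstream of it, had -0.25 ± 0.31, and Sox4 had 0.14 ± 0.36. Pax4, which also acts early in the lineage, had -0.89 ± 0.51, and Pax6, St18 and Myt1 had -0.29 ± 0.28, -0.24 ± 0.33 and -0.41 ± 0.32, all with overlapping groups. Other factors separated the groups. Nkx2-2 had 277, 284 and 202 against 111, 111 and 185, a log2 fold change of -0.89 ± 0.27, and Fev, expressed in serotonin cells, had 223, 185 and 114 against 95.0, 105 and 80.9. Isl1 had 199, 237 and 242 against 156, 143 and 133, and did not overlap either. The edgeR adjusted p of these 3 genes lay between 0.77 and 0.826. Whether Neurog3 and Neurod1 differed in their response was not tested.

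All 16 tested receptors and channels were lower, with a median log2 fold change of -0.89 and 7 of them at an unadjusted p under 0.05. Scn3a, a voltage-gated sodium channel subunit, had 325, 299 and 366 normalised counts in controls and 144, 163 and 140 at 72 h (edgeR adjusted p = 0.373, DESeq2 adjusted p = 0.0238). Ffar1, the receptor for long-chain fatty acids, had 103, 77.8 and 85.6 against 23.2, 40.3 and 47.1, without overlap (edgeR adjusted p = 0.807). Casr, the calcium-sensing receptor, had a log2 fold change of -0.01 ± 0.61. From 18 h to 72 h, 5 of these 16 genes were called lower, against 6.04% of all genes, with Ffar1 4.69-fold lower.

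Outside the lists, further genes had a low p. Vim, an intermediate filament gene, had 453, 284 and 314 normalised counts in controls and 146, 134 and 141 at 72 h (edgeR adjusted p = 0.0594, DESeq2 adjusted p = 7.74e-05). Reg4, a lectin gene expressed in enteroendocrine cells, had 3590, 3763 and 3495 against 1555, 1742 and 2005 (edgeR adjusted p = 0.108, DESeq2 adjusted p = 0.00019). Both sets of mice were separated with a wide gap. Gfra3, a receptor for artemin, had 416, 385 and 271 against 169, 172 and 159. Afp, the alpha-fetoprotein gene, had 663, 731 and 1141 against 183, 362 and 139, and Dner, a Notch ligand of neurons, had 73.4, 41.8 and 80.8 against 11.6, 12.1 and 4.42. Vim overlaps an antisense gene, and without a stated strand setting the reads of the pair cannot be told apart.

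Over the 5 lists, 34 of 84 genes (40.5%) were called lower in 72h-αGal than in 18h-αGal and 1 higher, against 6.04% and 4.18% of all genes. Against control, the median log2 fold change of the same genes was 0.41 at 18 h and -0.72 at 72 h, both relative to the same 3 control mice. At 18 h, 7 of the 84 were called higher than control and 1, Maob, was called lower, against 3.27% and 2.69% of all genes.

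**Figure D3:**
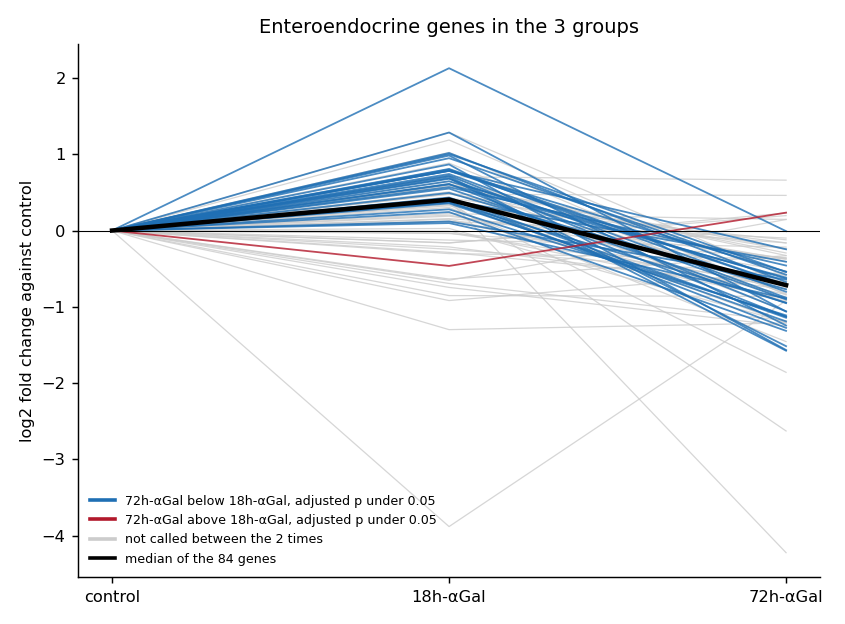
Log2 fold change against control (y axis) of the 84 enteroendocrine genes in 18h-αGal and 72h-αGal, 1 line per gene; control is set to 0, and both other points of a line share the 3 control mice. Blue lines are the 34 genes that fell between the 2 αGalCer groups, the red line is the 1 that rose, and the black line is the median, at 0.41 and then -0.72.

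Markers of other cells were few in these sorted libraries. Of 9 markers of enteric neurons and glia, 5 were tested. The sum over the 7 markers in the table was 215 to 235 normalised counts in controls and 76.5 to 166 at 72 h, lower as the enteroendocrine genes were. In the 18h-αGal mice this sum was 148, 226 and 226. The median log2 fold change of the 5 tested markers was -0.71 at 18 h against control and 0.02 from 18 h to 72 h. The enteroendocrine lists together had 0.41 and -1.17. Nos1 had 14.1, 14.2 and 11.9 in controls and 0 in each 72h-αGal mouse, and Sox10 had 18.8, 20.9 and 42.8 against 0, 4.03 and 2.94. None of the markers in the table was at 0 in all 6 libraries. Their part in the result was not tested. Of 14 T cell and intraepithelial lymphocyte markers 4 were tested, and their sum was 107 to 155 in controls and 86.8 to 294 at 72 h. Fibroblast markers summed to 34.2 to 59.4 in controls and 2.02 to 29.0 at 72 h. Endothelial markers, at 49.9 to 66.6 against 20.9 to 36.3, and smooth muscle markers, at 65.2 to 81.6 against 46.4 to 61.4, were also lower without overlap, and their part was not tested either.

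The comparison also asked how the other crypt programmes stood at 72 h. Genes of absorptive enterocytes were lower. All 25 genes of the brush border list and all 22 of fat absorption had negative log2 fold changes, with medians of -0.65 and -0.74, and none was called. Sis, the sucrase-isomaltase of the brush border, had 57590, 44063 and 94024 normalised counts in controls and 39482, 44849 and 27554 at 72 h. The highest value was that of control replicate 3, and the groups overlapped. Mttp, which loads lipid into chylomicrons, had 28146, 20573 and 47560 against 19099, 22984 and 13085. Without control replicate 3 the medians were -0.22 for the brush border, with 20 genes lower and 5 higher, and -0.28 for fat absorption.

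A few absorptive genes separated the groups without control replicate 3 being the extreme. Mep1a, a brush border metalloprotease, had 973, 698 and 704 normalised counts in controls, 120, 120 and 174 at 18 h and 453, 582 and 469 at 72 h (edgeR adjusted p = 0.809 against control). Between 18 h and 72 h it rose 3.67-fold (edgeR adjusted p = 0.000151). Scarb1, a lipid receptor, had 465, 348 and 342 in controls against 175, 264 and 177 at 72 h.

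In xenobiotic metabolism 36 of 37 genes were lower, with a median log2 fold change of -0.44. At an unadjusted p under 0.05, 9 genes were lower (24.3%), against 3.58% of all genes. Sult1b1, a sulfotransferase, had 2549, 1736 and 3647 normalised counts in controls and 1333, 1565 and 1054 at 72 h (DESeq2 adjusted p = 0.0306). Aldh1a1, a retinal dehydrogenase, had 1682, 1103 and 2539 against 776, 979 and 408 (DESeq2 adjusted p = 0.0296). For both genes every 72h-αGal mouse was below every control, while edgeR gave adjusted p of 0.714 and 0.81. Dio1, a deiodinase that activates thyroid hormone, had 381, 331 and 552 in controls, 100, 97.0 and 99.3 at 18 h and 162, 210 and 173 at 72 h. It was 1.84-fold higher at 72 h than at 18 h (edgeR adjusted p = 0.0361), and its DESeq2 adjusted p against control was 0.00923. Without control replicate 3 the median of the xenobiotic list was -0.28, with 29 genes lower and 8 higher and 3 lower at an unadjusted p under 0.05.

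MHC class II genes, which present peptides to CD4 T cells and which interferon-γ induces in epithelium through Ciita, stood between the levels of controls and of 18h-αGal mice, apart from control replicate 3. H2-Aa had 129 and 235 normalised counts in controls 1 and 2 and 1788 in control 3, against 2148, 1278 and 1182 at 72 h. At 18 h its values were 11052, 10675 and 11415. Cd74, the invariant chain, had 1033 and 1179 in controls 1 and 2 and 5261 in control 3, against 6651, 3444 and 3991. Control replicate 3 thus lay within or near the range of 72h-αGal, and with it no class II gene reached an unadjusted p under 0.05 although 8 of 9 were higher, with a median log2 fold change of 0.66.

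Without control replicate 3, 11 genes were called higher (0.0541% of 20326) and 9 lower (0.0443%) at 72 h. That mouse was left out because of its high values in these same genes, so that the p-values of the higher genes without it depend on the choice and are no independent test. The 9 lower ones were the 5 above with Trpa1, Rab3c, Vim and Gfra3. The 11 higher ones were H2-Aa, H2-Ab1, H2-Eb1, H2-DMa, H2-DMb1 and Cd74 of class II, H2-Q6, H2-Q7 and Psmb8 of class I and its proteasome, Nlrc5, the class I transactivator, and Ifi44, an interferon-inducible gene. H2-Ab1, for example, had a log2 fold change of 1.75 ± 0.19 there (edgeR adjusted p = 0.00111) and of 0.66 with all controls (edgeR adjusted p = 0.941). H2-Aa had 3.10 ± 0.35 (edgeR adjusted p = 0.032), and Nlrc5, with 96.9 and 103 normalised counts in controls 1 and 2, 794 in control 3 and 627, 412 and 648 at 72 h, had 2.51 ± 0.21 (edgeR adjusted p = 2.17e-05). H2-Q6 and H2-Q7 are close paralogues, and H2-Aa and H2-Eb1 overlap on opposite strands, so that their reads may have been shared. With all controls, 3 of the 9 class II genes were called between 18 h and 72 h, all lower at 72 h, against 6.04% of all genes. Ciita was among them at a log2 difference of -2.10 ± 0.34 (edgeR adjusted p = 0.00671).

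**Figure D4:**
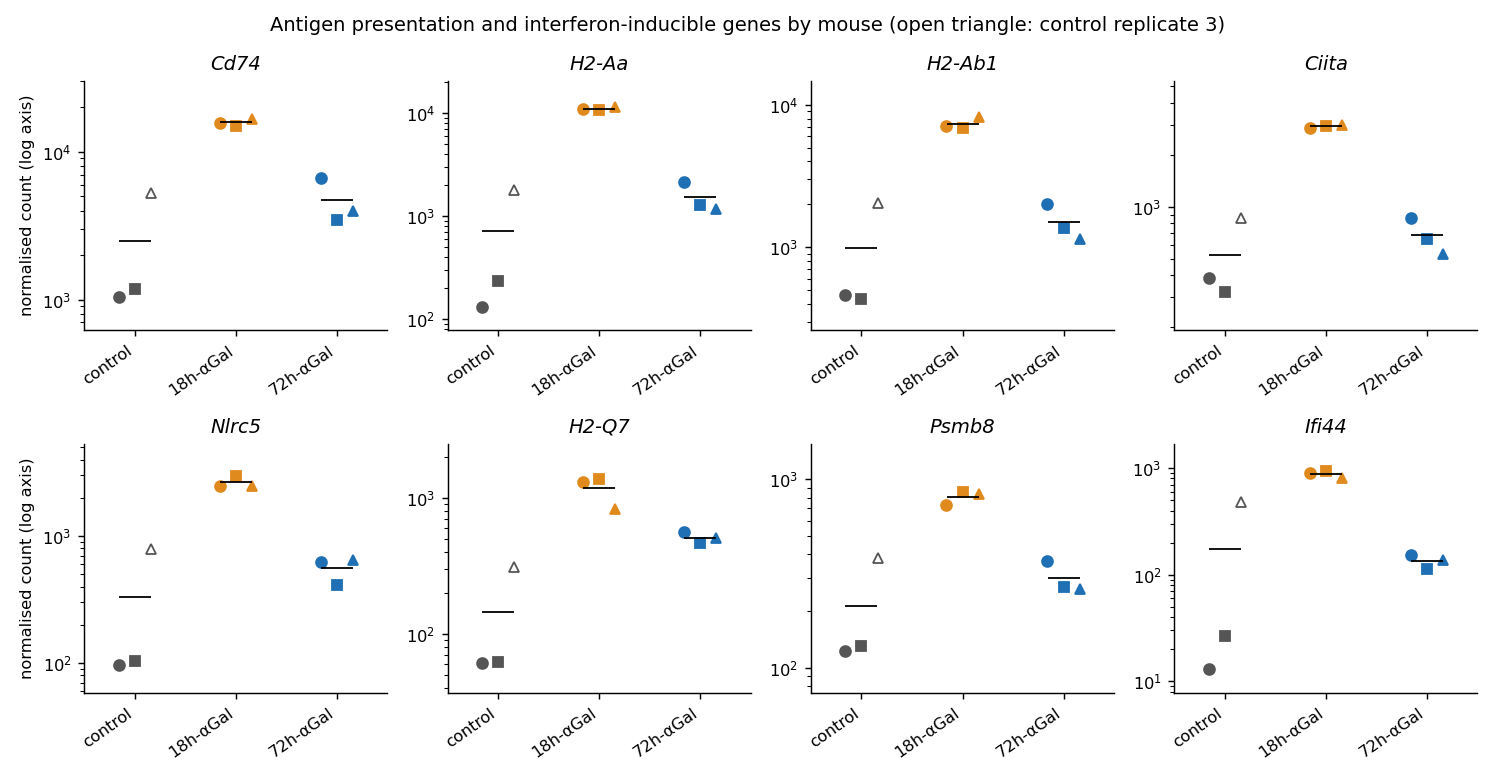
Normalised counts (log axes) of 8 antigen presentation and interferon-inducible genes in each mouse, with the group mean as a black bar; circles, squares and triangles are replicates 1, 2 and 3. Control replicate 3, the open triangle, lies above controls 1 and 2 in each panel, for example at 5261 against 1033 and 1179 for Cd74.

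Cells that carry class II on their own were looked for beside these genes. Myeloid markers, of which 6 of 11 were tested, summed to 340 to 564 normalised counts in controls and 652 to 880 at 72 h. They were thus higher at 72 h without overlap, and 1 of the 9 in the table was at 0 in all 6 libraries. Most of this sum was Cd68, a lysosomal gene, with 466, 368 and 262 against 531, 556 and 751. The myeloid sum was 564, 507 and 340 in control replicates 1, 2 and 3. Ptprc, the CD45 gene used in the sort, had 29.4, 14.2 and 14.3 in controls and 57.9, 35.3 and 4.42 at 72 h. B and plasma cell markers summed to 57.9 to 78.7 in controls and 73.6 to 109 at 72 h. The part of such cells in the class II values at 72 h was not tested.

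Interferon-γ-inducible genes were near control at 72 h only with control replicate 3 kept. With all controls, 13 of 30 genes were higher and 17 lower, with a median log2 fold change of -0.02. Without control replicate 3, 25 were higher and 5 lower, with a median of 0.46. Between 18h-αGal and 72h-αGal, 25 of the 30 were called lower, against 6.04% of all genes. Gbp2, an interferon-inducible GTPase, had 21.1, 62.6 and 52.3 normalised counts in controls, 1100, 1246 and 695 at 18 h and 31.3, 24.2 and 8.83 at 72 h, a 48.9-fold fall between the times (edgeR adjusted p = 9.73e-05). Gbp6 had 4.70, 15.2 and 9.51 in controls, 334, 337 and 344 at 18 h and 17.4, 17.1 and 39.7 at 72 h (edgeR adjusted p = 0.81 against control). Outside this list, Inf2, a formin gene that DESeq2 called, had 176, 141 and 128 in controls, 2573, 4164 and 2511 at 18 h and 531, 254 and 327 at 72 h (edgeR adjusted p = 0.51, DESeq2 adjusted p = 0.00201 against control). Its 72h-αGal mice were all above the controls.

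Type I interferon genes had 35 of 41 members lower than control and a median log2 fold change of -0.28, but 37 higher and 4 lower without control replicate 3, with a median of 0.30. The direction of this list therefore rested on 1 control. MHC class I genes were split evenly with all controls, 12 higher and 12 lower, with a median of -0.01. Without control replicate 3, 19 were higher and 5 lower, with a median of 0.43. H2-Q7 had 61.7, 62.6 and 309 normalised counts in controls and 564, 463 and 508 at 72 h, above control replicate 3 as well. With all controls kept, limma-voom with sample quality weights called H2-Q6 and H2-Q7 higher at 72 h, among its 12 calls of 18933 genes.

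The circadian clock is a further programme that the different times of sampling could touch. Of 20 clock genes tested, 12 were higher and 8 lower at 72 h than in controls, none was called, 5 were higher and 2 lower at an unadjusted p under 0.05, and 4 were higher in all 72h-αGal mice than in all controls, as 6.36% of all genes were. At that unadjusted p, 3 were higher and 2 lower without control replicate 3. Of all genes, 2.36% were higher and 3.58% lower at it with all controls. Tef, a transcription factor of the PAR bZIP family, had 315, 340 and 402 normalised counts in controls and 665, 615 and 612 at 72 h (edgeR adjusted p = 0.51). Dbp, of the same family, had 109, 112 and 99.9 against 186, 208 and 149, and Per3, a period gene, had 349, 248 and 240 against 500, 491 and 443. Each of these 3 genes separated the groups. Npas2 of the positive limb had 1189, 1169 and 1771 against 775, 1127 and 823, in the opposite direction, while Clock had a log2 fold change of -0.01 ± 0.12.

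Against 18h-αGal, 6 clock genes were called higher, where 4.18% of all genes were: Tef, Per3, Dbp, Nr1d2, Nr1d1 and Per1. Nr1d1, the repressor REV-ERBα, had 2411, 2857 and 3731 normalised counts at 18 h and 5886, 6088 and 6164 at 72 h, a 2.03-fold rise (edgeR adjusted p = 0.000938). In controls, also killed at 18 h, it had 5925, 4872 and 4479. In 18h-αGal, 3 of the 20 clock genes were called lower than in these controls and none higher. Of all genes, 2.69% were called lower and 3.27% higher there. The hour of the day at killing is not given in the labels. Upstream stretches of Per3 and Tef (GRCm38.p6, 250 bases, 5′ to 3′) are shown as those with a match among 4 clock genes searched, which also held Dbp and Nr1d2. PAR bZIP factors bind the D-box, and capitals mark TTATGTAA, a D-box sequence, or CACGTG, the E-box of the clock, on either strand.
Per3 (chr4:151044666-151044915, minus strand): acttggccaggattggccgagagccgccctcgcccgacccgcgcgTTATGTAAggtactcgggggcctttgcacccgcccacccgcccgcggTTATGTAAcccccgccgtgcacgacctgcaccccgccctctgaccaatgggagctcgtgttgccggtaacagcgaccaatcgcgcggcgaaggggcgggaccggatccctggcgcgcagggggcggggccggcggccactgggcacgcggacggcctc
Tef (chr15:81802423-81802672, plus strand): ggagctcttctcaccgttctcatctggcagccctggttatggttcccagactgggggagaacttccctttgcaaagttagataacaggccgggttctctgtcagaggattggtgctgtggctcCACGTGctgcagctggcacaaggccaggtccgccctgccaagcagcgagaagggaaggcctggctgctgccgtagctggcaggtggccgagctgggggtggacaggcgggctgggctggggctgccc
Per3 held 2 copies of TTATGTAA, 205 and 158 bases upstream, a sequence that 0.819% of 32851 promoters contained. Tef held CACGTG 127 bases upstream of the first of its 2 starts, as 6.02% of promoters did. Each sequence was thus found in 1 of the 4 genes.

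Genes of cell division were given by 3 lists, none with a called gene. Of 31 genes of G2 and mitosis, 30 were higher, with a median log2 fold change of 0.27. At an unadjusted p under 0.05, 7 were higher (22.6%), against 2.36% of all genes. Cenpe, a kinetochore motor, had 974, 1248 and 877 normalised counts in controls and 1406, 1476 and 1490 at 72 h, and Mki67, the proliferation marker, had 11402, 13133 and 8815 against 14621, 13480 and 13709. The edgeR adjusted p was 0.701 and 0.826. Replication-dependent histone genes were higher in 46 of 58 cases, with a median of 0.24, and DNA replication genes in 28 of 34, with a median of 0.17. Histone transcripts lack poly(A) tails and are captured by ribosomal depletion. Without control replicate 3 the mitosis list had 24 genes higher and 7 lower, with a median of 0.15. Histones then had 39 higher and 19 lower, with a median of 0.11, and DNA replication 21 higher and 13 lower, with a median of 0.02.

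Stem cell and secretory lists gave no calls. Of 25 stem cell genes, 21 were higher, with none at an unadjusted p under 0.05, and without control replicate 3 the split was 13 higher and 12 lower. Against 18h-αGal, 6 of the 25 were called higher, where 4.18% of all genes were. Among them Rnf43, a Wnt-induced ubiquitin ligase, went from 1614, 1450 and 1326 normalised counts to 3406, 3128 and 3900, a 2.39-fold rise (edgeR adjusted p = 0.0003). In controls it had 3231, 3423 and 2249. Goblet cell genes were higher in 16 of 18 cases, with a median log2 fold change of 0.27, and 14 of 18 without control replicate 3. Atoh1, which starts the secretory lineage, had 506, 442 and 494 in controls and 511, 629 and 667 at 72 h. Tuft cell genes were 10 higher and 10 lower, which became 3 higher and 17 lower without control replicate 3. Paneth cell genes were higher in 15 of 16 cases, which became 7 of 16 without control replicate 3.

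**Figure D5:**
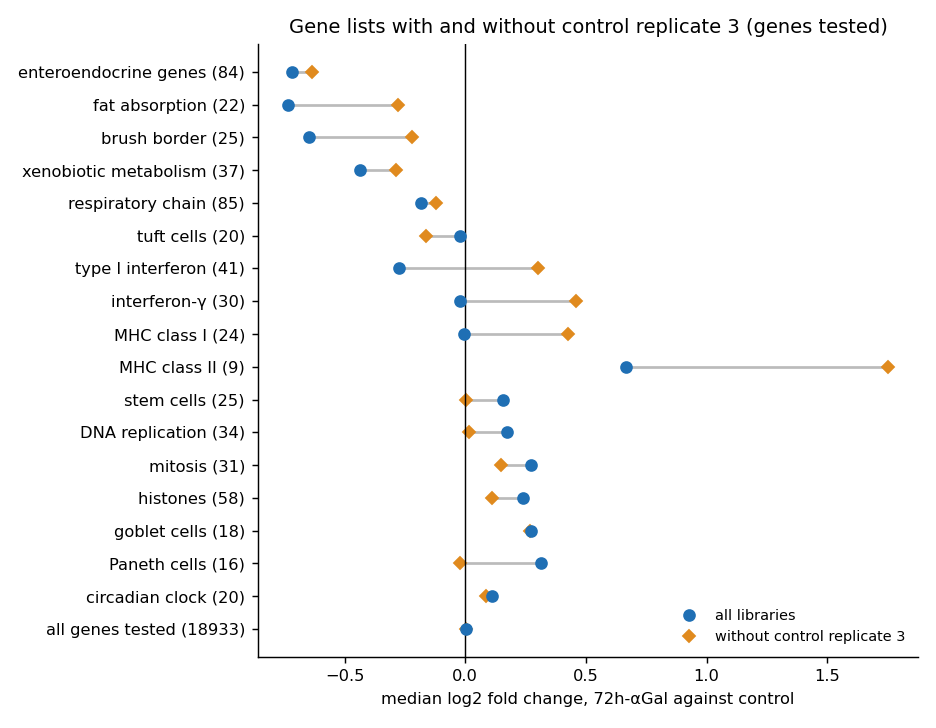
Median log2 fold change (x axis) of gene lists between 72h-αGal and control, with the number of genes tested in brackets; circles use all libraries and diamonds leave out control replicate 3. Enteroendocrine genes stay at -0.72 and -0.63, while type I interferon genes go from -0.28 to 0.30 and MHC class II genes from 0.66 to 1.75.

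Nuclear-encoded subunits of the respiratory chain were lower in 70 of 85 cases, with a median log2 fold change of -0.18. At an unadjusted p under 0.05, 14 genes were lower (16.5%), against 3.58% of all genes. The median was -0.12 without control replicate 3, and 3 genes were lower and 1 higher at that p. From 18 h to 72 h, 33 of the 85 were called lower, against 6.04% of all genes. Atp5pb, of the ATP synthase stalk, had 2520, 2032 and 2748 normalised counts in controls and 1903, 2016 and 1817 at 72 h. The 13 proteins encoded in the mitochondrial genome had a median of 0.05, and ribosomal protein genes were 40 higher and 44 lower with a median of -0.01, or 26 higher and 58 lower without control replicate 3.

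DESeq2, run on the same counts, called 31 of 19608 genes (0.158%), 26 lower and 5 higher, and these held all 5 genes called by edgeR. Its 5 higher genes were Gm43305, Inf2, Kctd18, Coro6 and Gm50256. The gene Gm43305 had 2662, 3133 and 1776 normalised counts in controls and 11590, 7163 and 7900 at 72 h (edgeR adjusted p = 0.596, DESeq2 adjusted p = 6.29e-08). In 18h-αGal mice it had 3154, 3325 and 1485, close to controls, and the difference between the times was 3.35-fold (edgeR adjusted p = 0.0253). Kctd18 had 55.2, 106 and 76.1 against 206, 207 and 210. Adgrd1, an adhesion receptor, was named for its low p among higher genes and had 168, 166 and 257 against 401, 362 and 451 (edgeR adjusted p = 0.51).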

How the data were processed

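IECs were sorted from proximal small intestinal crypts of female C57BL/6J mice, and libraries were made from ribosome-depleted RNA with a strand-directional kit. The authors mapped 100-base reads with HISAT2. The study's methods name GRCm39, whereas the submitters' processing notes name GRCm38 and mm10, featureCounts of Subread and DESeq2 1.42.0. The annotation release and strand setting are not given in the sources used here. The deposited raw count per gene served for all tests. The authors also deposited a normalised signal, the raw count divided by 1 size factor per library, which is printed here as normalised counts and holds no correction for gene length.

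Symbols came from GENCODE by Ensembl identifier for 28480 of 29288 genes. Counts were tested in R 4.3.3 with edgeR 4.0.16 (filterByExpr, TMM, robust quasi-likelihood fit of 3 group means over 9 libraries, Benjamini-Hochberg over 18933 genes, calls at an adjusted p under 0.05). Gene lists and members were chosen with earlier results of these data known. They are described by counts and medians, without a test, and 1 gene of the secretion list is counted but not reported here by itself. Genes were named by rule: all called genes, up to 20 called by DESeq2 only, up to 8 in each direction with the lowest p among genes with a mean of at least 100 and groups without overlap, and up to 5 per list with the lowest p beside defining members. Not every such gene is printed. Genes named among the 20 called without control replicate 3, Coro6, Gm50256, and the examples Pam, Casr, Mttp, Gbp2, Rnf43, Atoh1, Atp5pb, Atf3, Calr and Nr1d1 were chosen after their values were seen. Alternatives were RLE and upper-quartile factors, 2 other filters, DESeq2 1.42.0, limma 3.58.1 with sample weights, 2 groups only, a replicate block, mitochondrial genes left out, an effect size of 1 on the log2 scale and leaving out each mouse. The procedure was also run on simulated data with less spread than these libraries, which does not measure how reliable the calls here are. Replicate numbers recur between groups, but the labels describe no pairing. P-values measure the spread between these mice. Promoter sequences came from RefSeq (GRCm38.p6).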

Additional observations from a re-analysis of the deposited data

Results flagged for a closer look

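The 5 genes called lower at 72 h differed between the 2 αGalCer groups, which shared the same control mice, by a direct test of 72h-αGal against 18h-αGal in edgeR's quasi-likelihood fit. The log2 difference was -1.56 ± 0.15 (SE) for Tph1, -1.57 ± 0.16 for Neurod1, -2.22 ± 0.21 for Tac1, -1.78 ± 0.16 for Chgb and -1.74 ± 0.17 for Chga. Each was lower in 3 of 3 mice at 72 h than in every mouse at 18 h. The highest edgeR adjusted p of the 5 was 7.76e-05. These genes were chosen by their low values in the same 72h-αGal mice, so that this is no independent test. With 3 mice in a group, single mice were not screened as outliers.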

How the results depend on the processing

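Against 5 genes called at 72 h, the count was 13 without a filter on low counts, 31 with DESeq2, 12 with limma-voom and sample quality weights and 1, Tph1, with a replicate block. Leaving out 1 mouse gave 0 to 20 calls. With RLE or upper-quartile factors, at least 10 counts in 6 samples, mitochondrial genes left out or an effect size of 1, it was 5, and with 2 groups only 4, of which 3 were shared. Of 18 alternatives, Tph1 kept its call in 15, Neurod1 and Chgb in 12, Tac1 in 11 and Chga in 10, and none reversed. Between 72h-αGal and 18h-αGal, 1936 genes were called, 682 with an effect size of at least 1, and 831 to 2593 without 1 mouse, with 831, 1108 and 1194 without 72h-αGal replicates 3, 1 and 2 and 940 without 18h-αGal replicate 2. Replicate numbers gave no sign of pairing: deviations of same-numbered control and 72h-αGal mice correlated at -0.03, -0.10 and -0.15, and the block left 1371 calls between the times. List medians of enteroendocrine, brush border, fat absorption and xenobiotic genes kept their sign in all 18 alternatives. MHC class II moved between 0.30 and 1.75. The sign differed from the main value in 2 alternatives for type I interferon, 2 for interferon-γ, 6 for MHC class I and 2 for Paneth cell genes, and without control replicate 3 for the antimicrobial list, from -0.72 to 0.09. With 3 mice in a group and no PBS mice at 72 h, a gene that was not called is not shown to be unchanged, and genes near the floor of 3 counts have wide errors.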

Other observations

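Antimicrobial and inflammatory genes, Reg4 among them, were 12 lower and 2 higher of 14 tested at 72 h. Without control replicate 3 the split was 6 lower and 8 higher. Reg3b, a bactericidal lectin, had 2437, 4677 and 8585 normalised counts in controls and 2818, 1779 and 1193 at 72 h, with overlapping groups and the highest value in control replicate 3. Immediate early genes, which answer to handling and tissue dissociation, had a median log2 fold change of 0.01 against control. From 18h-αGal to 72h-αGal, 12 of 22 were called higher, against 4.18% of all genes. Atf3 was among them, with 4196, 4076 and 4159 normalised counts at 18 h and 8146, 7586 and 7460 at 72 h, against 6362, 7383 and 6600 in controls.

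In the unfolded protein response, 13 of 27 genes were called lower at 72 h than at 18 h and 1 higher, against 6.04% and 4.18% of all genes. Calr, the chaperone calreticulin, had 27205, 27979 and 28287 normalised counts at 18 h and 12667, 12108 and 9756 at 72 h, a 2.41-fold fall (edgeR adjusted p = 5.6e-05), with 14238, 12332 and 15769 in controls. Dnajb9, a target of the Xbp1 branch, had 2150, 1959 and 2508 in controls and 1304, 1448 and 1607 at 72 h, with no overlap (edgeR adjusted p = 0.373). CD1d itself was measured through Cd1d1, with 36.4, 36.1 and 23.8 normalised counts in controls and 23.2, 16.1 and 33.1 at 72 h. Cd1d1 had a log2 fold change of -0.40 ± 0.63.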
